A study of Mus musculus with 33 samples.

Results

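The comparison described here is 1 day of nicotinamide (NAM) against no treatment in the mouse libraries labelled spleen. Its members were chosen by sample label alone and comprise 10 of the 33 libraries in the series, 5 per group. All mice were C57Bl/6, and the labels name no genetic change and no agent other than NAM. The study's methods describe its mice as young adult females under 1 age range, and the labels give no age for single libraries. NAM was given at 0.5% in the drinking water, and untreated mice did not receive it. PolyA RNA from the freshly removed organs was sequenced as 2 reads of 75 bases per fragment. Libraries of the same label after 3 or 14 days of NAM, 5 each, entered the statistical model and are shown beside the comparison. The labels do not say whether each library came from a separate animal, so the p-values measure the spread between these libraries.

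NAM is the amide form of vitamin B3. Cells recycle it into NAD, the electron carrier that feeds the mitochondrial respiratory chain and the substrate of sirtuins and poly(ADP-ribose) polymerases, which NAM itself inhibits. Surplus NAM is methylated by nicotinamide N-methyltransferase (Nnmt) with a methyl group from S-adenosylmethionine. In lymphoid organs, lymphocyte entry, residence and rest are governed by a small set of transcription factors and chemokines, which makes these genes a natural readout next to metabolism.

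The tissue label was checked first and did not hold. Glycam1, the mucin-like L-selectin ligand made by lymph node venules, lay between 108167 and 214210 normalised read counts in the 20 libraries labelled spleen and between 1.59 and 12.4 in the 13 labelled lymph node. Spic, which red pulp macrophages of the spleen need to develop, lay between 774.3 and 1295 under the spleen label and between 6117 and 10491 under the lymph node label. The spleen transcription factors Tlx1 and Nkx2-3 did not pass the filter on low values under the spleen label. The organ is therefore called by its label throughout.

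Depth was 18325061 to 31486631 whole reads for the untreated group and 21848473 to 32066627 at 1 day. Replicate 2 at 1 day stood apart on the first principal component and was the richest of its group in adipocyte transcripts (score 74.2 on the component). Untreated replicates 1 and 3 stood apart on the opposite side, at -62.5 and -55.6 against 9.80 to 23.97 for the other untreated libraries, and replicate 1 had the lowest adipocyte level of its group. The summed level of 19 adipocyte markers was 51049 to 279655 normalised counts in untreated libraries and 176284 to 781976 at 1 day, so the groups overlapped. None of the 19 was at 0 in all untreated libraries. All 19 markers had positive log2 differences, with a median of 0.99, and 2 of them (Retn and Thrsp) were called higher and 0 lower. The mean log2 level of the list was 1.04 above untreated at 1 day. For 12 lists the counts were also computed without this library and with the adipocyte score in the model.

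With limma and Benjamini-Hochberg adjustment at 0.05, 3030 of 18243 genes differed at 1 day (16.6%), of which 1562 were higher (8.56%) and 1468 lower (8.05%). The median absolute log2 difference of these genes was 0.43, and 289 passed a 2-fold difference, 99 higher and 190 lower. The 2 groups did not overlap for 2169 genes (11.9%). The median over all genes tested was 0.01. These shares are the background against which each gene list is read below.

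**Figure D1:**
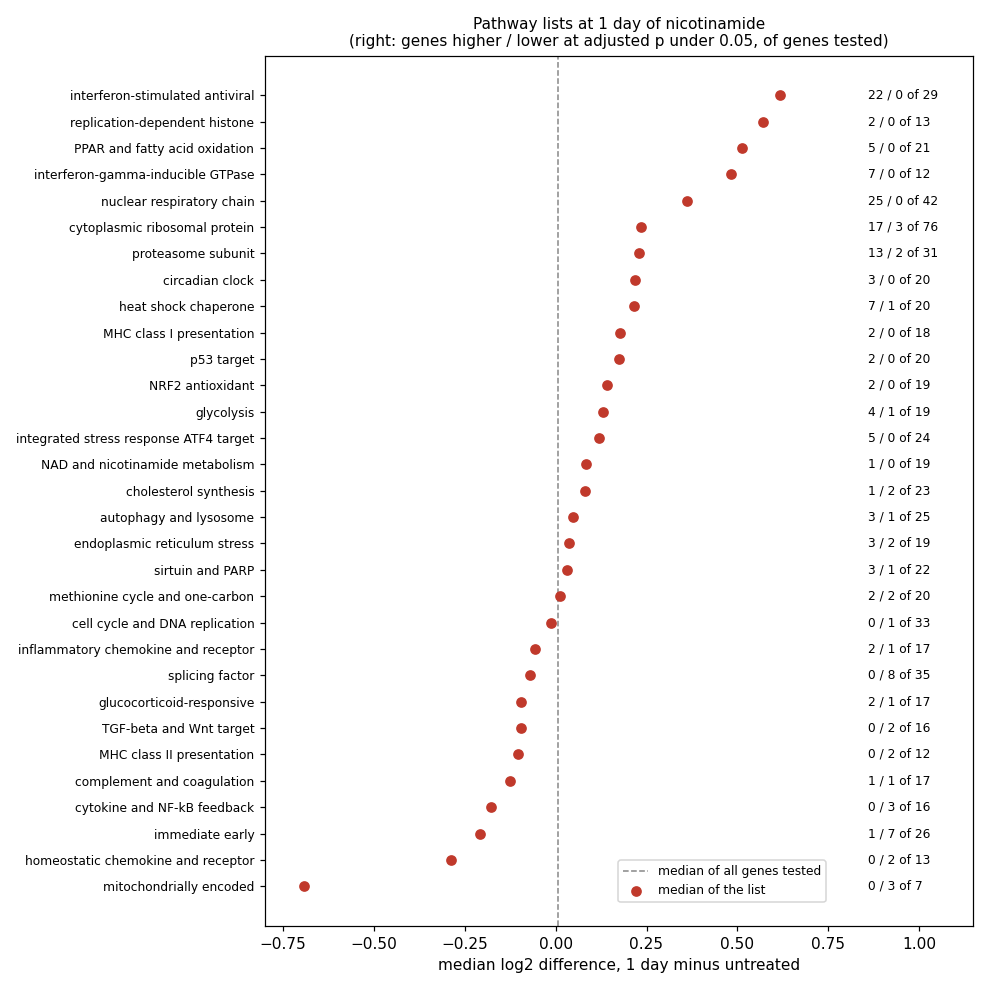
Median log2 difference (1 day minus untreated, horizontal axis) of 31 pathway lists, with the counts of members higher and lower at a limma adjusted p under 0.05 beside each point. Respiratory chain genes of the nucleus sit at 0.36 with 25 of 42 higher, and those of the mitochondrial genome at -0.69 with 3 of 7 lower.

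Among respiratory chain genes, the nuclear genes called were higher and the mitochondrial rows called were lower. Of 42 nuclear subunit genes tested, 25 were higher and 0 lower, with a median log2 difference of 0.36, and 23 had groups that did not overlap. The other 17 did not pass, and 4 of the 42 had negative differences. Cox5a, a subunit of cytochrome c oxidase on chromosome 9 (57521232 to 57532424, mm10), gave 2524, 2650, 3030, 2582 and 2232 normalised counts in untreated replicates 1 to 5. At 1 day it gave 4519, 6448, 4883, 5246 and 4730. Every treated library lay above every untreated one, and the log2 difference was 0.98 ± 0.15 (SE, limma adjusted p = 0.000606).

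Genes of other complexes rose too. Uqcrfs1, the Rieske iron-sulphur protein of complex III, rose from 3914 ± 318 to 7037 ± 1517 (SD, n = 5 each), a log2 difference of 0.83 with limma adjusted p = 0.000709. Sdhd, a membrane anchor of succinate dehydrogenase, rose from 4147 ± 342 to 6537 ± 1265 (limma adjusted p = 0.00153). Ndufc1, a small complex I subunit named for the size of its change, rose from 533 ± 37.4 to 1362 ± 347, a log2 difference of 1.32 with limma adjusted p = 0.000379. Ndufaf5, an assembly factor of complex I, was among the 5 rises with the smallest adjusted p. It lay between 233.7 and 265.4 in untreated libraries and between 383.1 and 419.2 at 1 day, a log2 difference of 0.67 (limma adjusted p = 0.000231).

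Replicate 2 at 1 day was the highest library for the list. Without it, 23 of the 42 genes were higher, 1 was lower, and the median was 0.28. With the adipocyte score in the model, 23 were higher, 1 was lower, and the median was again 0.28.

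On the mitochondrial chromosome the deposited table merges neighbouring genes into rows. It holds 10 of the 13 genes of this list. No row lies between positions 6941 and 9203, and mt-Co2, mt-Atp6 and mt-Atp8 have none. The counts and shares below cover only the rows present. The row of mt-Nd2, a complex I subunit, held 210873, 193865, 216023, 220267 and 188089 normalised counts in untreated libraries and 116892, 118311, 94206, 128998 and 78501 at 1 day. Untreated and treated libraries did not overlap, and the log2 difference was -0.96 ± 0.25 (SE, limma adjusted p = 0.0123). The row that joins mt-Nd1 with a ribosomal RNA fell by 0.69 on the log2 scale (limma adjusted p = 0.0248). The row of mt-Nd5, mt-Nd6 and mt-Cytb had a log2 difference of -0.53 that missed the threshold (limma adjusted p = 0.152), although its groups did not overlap. mt-Co1, the most abundant row, had overlapping ranges of 1090809 to 1253889 and 753368 to 1277228, with limma adjusted p = 0.64.

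The third row called, a minor one that begins at position 9203, overlaps mt-Co3, mt-Nd3 and mt-Nd4l. It had 498.5 to 1563 counts in untreated libraries and 154.5 to 384.7 at 1 day. Of the 7 rows of the mitochondrial list, 3 were lower, 0 higher, and 6 had groups that did not overlap. With the adipocyte score in the model 6 were lower, with a median of -0.84, and with only the untreated and 1 day groups in the fit 5 were lower. A further 6 rows of this chromosome, with means from 79.9 to 15645 counts, were tested outside the list. Of these, 3 were lower and 0 higher. The lower ones overlap other rows of the same chromosome, and the most abundant, at mt-Nd5 and mt-Nd6, had 5738 to 11860 counts in untreated libraries and 2165 to 3873 at 1 day. Mitochondrial rows together held 9.25% ± 0.355 (SD, n = 5) of all normalised counts in untreated libraries and 7.01% ± 1.36 at 1 day. The ranges of this share were 8.92% to 9.85% and 4.85% to 8.21%. A two-sided exact permutation test gave p = 0.00794, the smallest that 5 libraries against 5 allow. Size factors recomputed without this chromosome left 25 nuclear genes higher and 3 mitochondrial rows lower. Such factors are medians over all genes tested, so leaving out 13 rows could hardly change them, and this setting decides nothing about scaling. Without the library with the lowest share (replicate 5 at 1 day) and the shallowest untreated library, 1 mitochondrial row remained called and the median was -0.54.

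**Figure D2:**
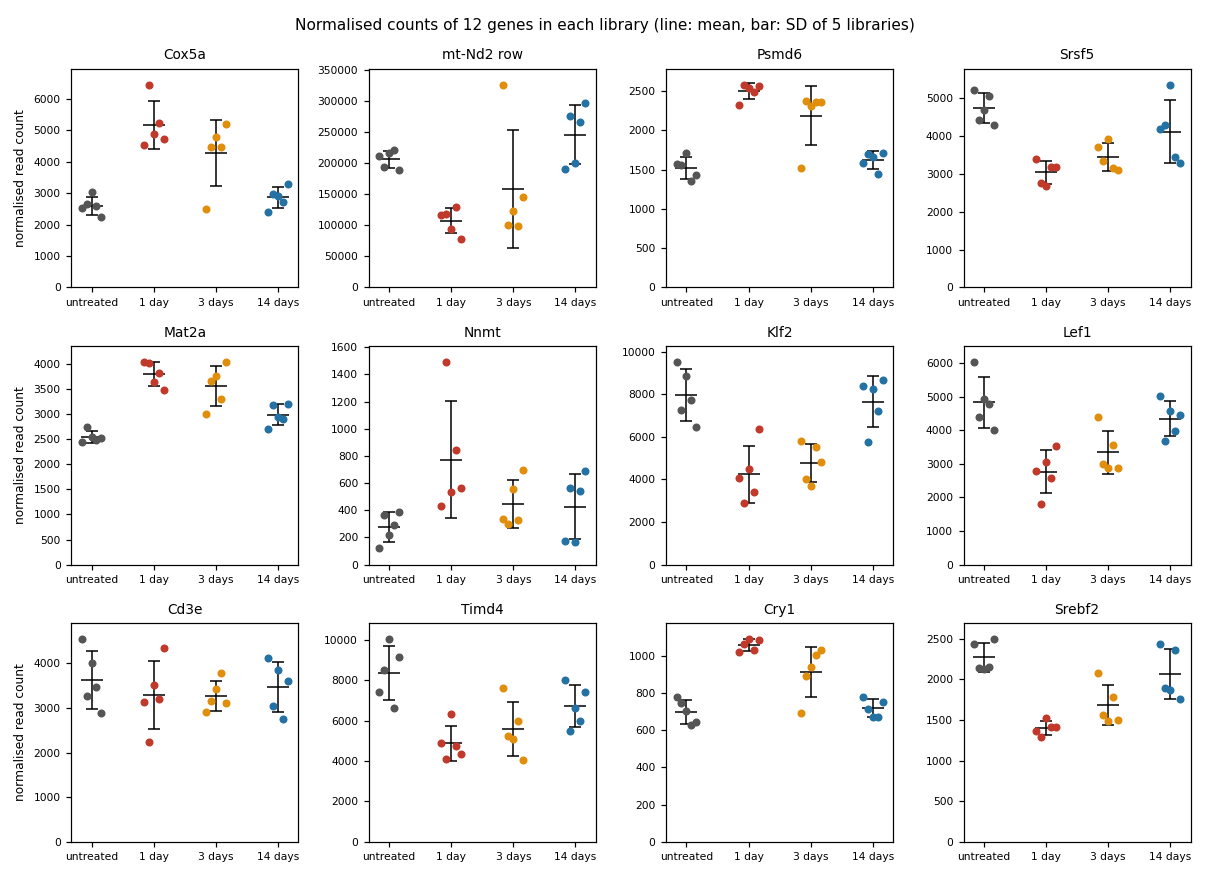
Normalised read counts (vertical axes, linear, from 0) of 12 genes in each library by group, with the mean as a line and the SD of 5 libraries as a bar. Cox5a, Psmd6, Mat2a and Cry1 at 1 day lie above every untreated library and the mt-Nd2 row, Srsf5, Klf2, Lef1, Timd4 and Srebf2 below, while Cd3e overlaps.

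Genes of protein synthesis and turnover followed, with less uniform counts. Of 76 cytoplasmic ribosomal protein genes, 17 were higher and 3 lower, with a median of 0.23. Rpl39 gave 5975 to 9112 in untreated libraries and 13005 to 22391 at 1 day, a log2 difference of 1.20 with limma adjusted p = 0.00367. Rpl37 and Rpl24 rose by 1.20 and 0.99 on the log2 scale. Rpl22l1, a paralogue of Rpl22 named for the size of its change, rose from 914.1 ± 167 to 2790 ± 420 (SD, n = 5), a log2 difference of 1.61 (limma adjusted p = 0.00197). The 3 lower genes, named after their values were seen, were Rpl27 at -0.43, Rpl23 at -0.48 and Rpsa at -0.38.

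This gene family has many near-identical copies across the genome, and how reads were divided among them is not stated. The count moved widely with the libraries and settings used. It was 12 higher without replicate 3 or 5 at 1 day or without untreated replicate 2, 4 or 5, 47 higher with the adipocyte score in the model, and 16 higher and 9 lower after correction for transcript length and GC share.

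The proteasome, which degrades ubiquitin-tagged proteins, had 13 of 31 subunit genes higher and 2 lower (Psmb2 and Psmd8), with a median of 0.23. Psmd6, a subunit of the regulatory lid, gave 1565, 1562, 1707, 1348 and 1430 in untreated libraries. At 1 day it gave 2326, 2579, 2539, 2482 and 2559, values that lay close together and above all untreated ones. The log2 difference was 0.72 ± 0.10 (SE, limma adjusted p = 0.000379). The core subunit Psma3 rose by 0.65, the deubiquitinase Psmd14 by 0.37 and the base scaffold Psmd2 by 0.39 on the log2 scale. Psme2, a proteasome activator inducible by interferon, rose by 0.60 (limma adjusted p = 0.0125). After the length and GC correction 10 subunits were higher and 3 lower, with a median of 0.14. With the adipocyte score in the model 18 were higher, and without replicate 2 at 1 day 10.

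Transcript length and GC share moved with these results. Over 15364 genes with an annotated length, the log2 difference fell as length grew (Spearman rho = -0.15, a description across genes, which are not independent). In the shortest decile of genes 15.5% were higher and 4.55% lower, and in the longest decile 3.97% were higher and 10.4% lower. The log2 difference also fell as GC share grew (Spearman rho = -0.11). In the lowest GC decile 11.8% were higher and 4.23% lower, and in the highest 3.84% were higher and 11.6% lower. The median annotated length was 1014 bases for the nuclear respiratory list, 785.5 for ribosomal proteins and 1440 for the proteasome, against 2763 over all genes. After the correction, 20 of the 42 respiratory genes were higher and 0 lower, with a median of 0.30. The part of length and of GC share in these results beyond that correction was not tested.

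**Figure D3:**
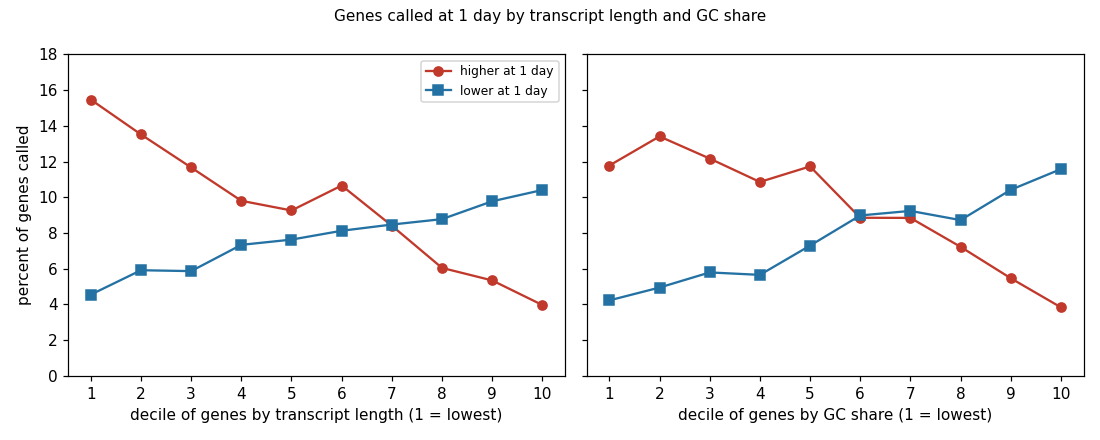
Percent of genes called higher or lower at 1 day (vertical axis) in each decile of genes by transcript length (left) and by GC share (right). The share called higher falls from 15.5% in the shortest to 3.97% in the longest decile, and the share called lower rises from 4.55% to 10.4%. From the lowest to the highest GC decile the share higher falls from 11.8% to 3.84% and the share lower rises from 4.23% to 11.6%.

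Chaperone genes that were called were mostly higher. Of 20 heat shock genes, 7 were higher, 1 was lower and 12 did not pass, with a median of 0.22. Hsph1, a nucleotide exchange factor for Hsp70, gave 2211, 2364, 1892, 1679 and 1462 in untreated libraries and 2987, 2391, 3239, 2428 and 2886 at 1 day. The groups were adjacent without overlapping, and the log2 difference was 0.55 (limma adjusted p = 0.0118). Cacybp, a co-chaperone, rose by 0.43, and Hspa4l and Dnaja1 by 0.37 each. The lower gene was Hsf1, the transcription factor that drives this programme, which fell from 1617 ± 161 to 1229 ± 84.8 (SD, n = 5, limma adjusted p = 0.00157).

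Neighbouring stress programmes changed in single genes. Of 24 targets of the integrated stress response, 5 were higher and 0 lower, among them Pck2, Psph and the transcription factor Ddit3, at 0.41, 0.42 and 0.54. Atf4 itself, their main regulator, had a log2 difference of 0.12 (limma adjusted p = 0.144). In the endoplasmic reticulum list 3 of 19 were higher and 2 lower, with Hspa5 at 0.44 and the ubiquitin ligase Syvn1 at -0.37. The antioxidant genes Prdx1 and Txn1 were the 2 higher of 19 NRF2 targets, at 0.45 and 0.54, and 0 were lower.

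Splicing regulators were lower where they were called. Of 35 tested, 0 were higher and 8 lower, with a median of -0.07. Srsf5, a serine- and arginine-rich splicing regulator, gave 5213, 4418, 4685, 5069 and 4302 in untreated libraries. At 1 day it gave 3399, 2770, 2689, 3189 and 3177, all below the lowest untreated value, with a log2 difference of -0.64 (limma adjusted p = 0.00118). Srrm1 fell by 0.50 and Hnrnph1 by 0.30 on the log2 scale. Srsf1 had a log2 difference of -0.10 that did not pass (limma adjusted p = 0.399). With the length and GC correction 14 were lower, without untreated replicate 1 the number was 5, and with the adipocyte score in the model 4 were higher and 6 lower. Without replicate 2 at 1 day 2 were higher and 6 lower, with a median of -0.02.

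Immediate early genes, which respond within minutes to receptor signals, were mostly lower where they were called. Of 26 tested, 7 were lower and 1 (Ier3) higher, with a median of -0.21. The median was -0.12 without replicate 4 at 1 day, and Ier3 passed in 12 of the 26 alternative settings. With the adipocyte score in the model 3 were higher and 9 lower. Klf2, the factor that keeps naive T cells at rest and allows their exit from lymph nodes, gave 9523, 7243, 8876, 7742 and 6445 in untreated libraries and 4051, 2885, 4480, 3426 and 6352 at 1 day. Replicate 5 at 1 day came closest to the untreated range without entering it. The log2 difference was -0.95 ± 0.18 (SE, limma adjusted p = 0.0018).

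Egr1, a zinc finger factor induced by growth and antigen receptor signals, fell from 4089 ± 663 to 2555 ± 399 (SD, n = 5), a log2 difference of -0.68 with limma adjusted p = 0.00188. Nr4a1, a readout of antigen receptor signalling, fell by 0.40, and the ERK phosphatase Dusp6 by 0.34. Fos overlapped fully, from 292.7 to 581.6 in untreated libraries and from 275 to 645.3 at 1 day (limma adjusted p = 0.66).

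Among 17 T cell genes, 0 were higher and 3 lower, and these were the transcription factors Lef1, Tcf7 and Bcl11b. The share of 3 in 17 lay near the background. Lef1, with Tcf7 a nuclear effector of Wnt signalling in naive T cells, gave 6038, 4390, 4922, 4791 and 4020 in untreated libraries and 2796, 1809, 3072, 2594 and 3542 at 1 day. The groups did not overlap, and the log2 difference was -0.83 ± 0.15 (SE, limma adjusted p = 0.00177). Tcf7 fell by 0.63 and Bcl11b, which holds T cell identity, by 0.73. Axin2, a feedback target of the same pathway, fell from 1090 ± 99.0 to 783.7 ± 48.3 (SD, n = 5, limma adjusted p = 0.000945). Its list of TGF-beta and Wnt targets had 2 of 16 lower, Lef1 being the other, a share below that of all genes.

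Cd3e, a constant chain of the T cell receptor complex, spanned 2890 to 4543 in untreated libraries and 2233 to 4347 at 1 day (limma adjusted p = 0.501). In bulk tissue, fewer cells of a type and less RNA per cell cannot be told apart. The summed level of the T cell genes was 91472 to 130803 in untreated libraries and 69037 to 127130 at 1 day, lowest in replicate 2. Lef1, Tcf7 and Bcl11b were called in all 26 alternative settings, one of which leaves that library out. The median of the T cell list was -0.15, and it was 0.09 with the adipocyte score in the model, where 3 other members were called higher, and -0.02 without replicate 2 at 1 day, where the same count of 3 was lower.

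Among 16 B cell genes, 0 were higher and 4 lower. The lineage factors Pax5 and Ebf1 had log2 differences of -0.46 and -0.42 (limma adjusted p = 0.0115 and 0.0172), and Fcer2a and the survival receptor Tnfrsf13c, which passed in 13 of the 26 alternative settings each, were the others. The number lower was 1 without untreated replicate 5 and 2 without untreated replicate 1, 3 or 4 or without replicate 2 or 4 at 1 day. With the adipocyte score in the model 2 were higher and 2 lower. The follicle chemokine Cxcl13 and its receptor Cxcr5 were the 2 lower of 13 homeostatic chemokine genes, at -0.62 and -0.40. Cxcr5 passed in 14 of the 26 alternative settings. Irf4, a factor of activated and antibody-secreting cells, fell by 0.44 (limma adjusted p = 0.00754).

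**Figure D4:**
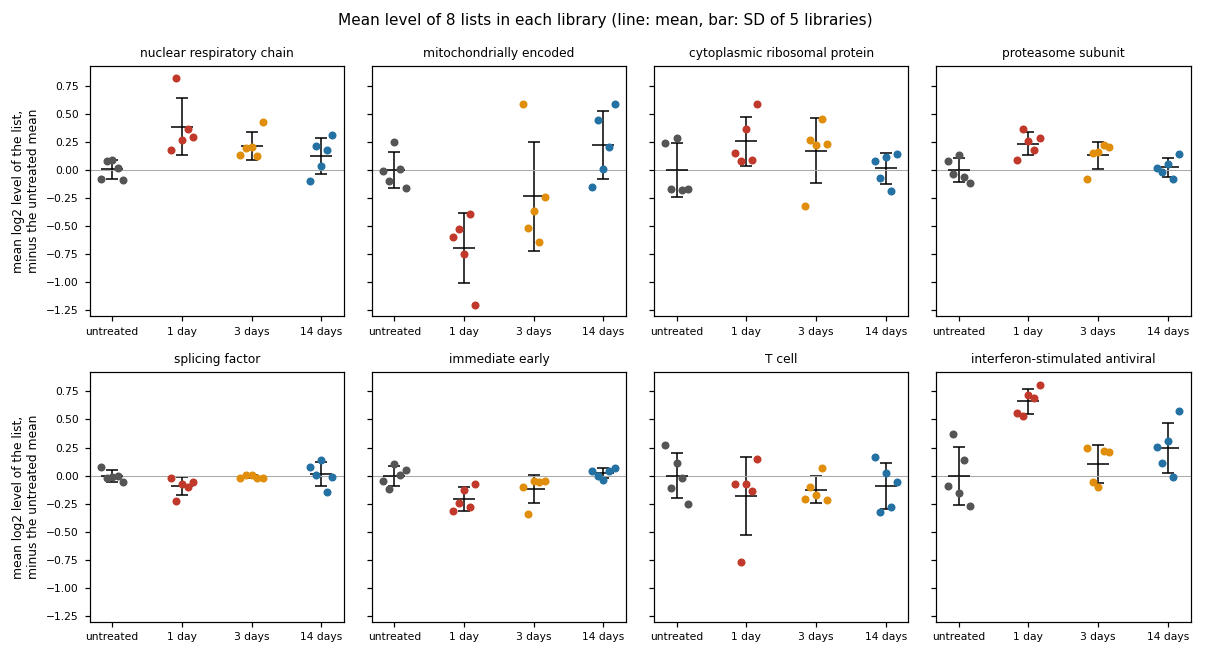
Mean log2 level of 8 gene lists in each library, relative to the mean of untreated libraries (vertical axis), by group, with the mean as a line and the SD of 5 libraries as a bar. The mitochondrial and nuclear respiratory lists separate in opposite directions at 1 day, and 1 library at 3 days stands apart from the other 4 in the mitochondrial, ribosomal and proteasome panels.

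Single genes of macrophages and vessels were called in lists whose shares lay near or below the 16.6% of all genes, apart from the red pulp list with 2 of 6 (Vcam1 higher and Treml4 lower). Of 17 macrophage and monocyte genes, 2 were lower and 0 higher. Timd4, a receptor for phosphatidylserine on tissue-resident macrophages, gave 7426, 8524, 10030, 6630 and 9149 in untreated libraries and 4878, 4090, 6342, 4739 and 4355 at 1 day. Its highest treated value lay just under its lowest untreated one, and the log2 difference was -0.78 (limma adjusted p = 0.00261). Cd68, a lysosomal glycoprotein of macrophages, fell by 0.53. Vcam1, an adhesion molecule of stroma and macrophages, rose from 1787 ± 221 to 2777 ± 299 (SD, n = 5, limma adjusted p = 0.000872).

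The monocyte-attracting chemokine Ccl8 gave 936.2 to 1695 in untreated libraries and 2153 to 3422 at 1 day, a log2 difference of 1.00 (limma adjusted p = 0.0135). Cxcl10 was the other of 2 higher among 17 inflammatory chemokine genes, at 0.65, and Cx3cr1 the 1 lower, which passed in 15 of the 26 alternative settings. The venule genes Cd34 and Madcam1 were the 2 lower of 12 high endothelial venule markers, at -0.44 and -0.69, while Glycam1 had similar levels of 126739 to 214210 and 117039 to 192173. Esam, an endothelial junction protein, was the 1 of 12 blood endothelium genes called, and was higher by 0.55.

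Genes that handle NAM and methyl groups gave few calls with clear values. Nnmt was the only 1 of 19 NAD and nicotinamide genes called. It gave 122.9, 367.0, 216.5, 293.3 and 389.1 in untreated libraries and 429.3, 1492, 536.7, 847.2 and 563.1 at 1 day, with replicate 2 the highest. The log2 difference was 1.44 ± 0.42 (SE, limma adjusted p = 0.026), and without replicate 2 at 1 day it was 1.16 and no longer passed. Nampt, the rate-limiting enzyme of NAD recycling, had a log2 difference of 0.20 (limma adjusted p = 0.228).

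Mat2a, which makes S-adenosylmethionine outside the liver, gave 2440, 2737, 2552, 2477 and 2524 in untreated libraries. At 1 day it gave 4038, 4025, 3642, 3812 and 3474, and the groups lay far apart compared with their spread. The log2 difference was 0.58 ± 0.07 (SE, limma adjusted p = 0.000241), and it passed in all 26 alternative settings. Its regulatory subunit Mat2b rose by 0.44 (limma adjusted p = 0.00745). In the list of 20 methionine cycle genes 2 were higher and 2 lower (Gnmt, at 2.89 to 24.2 counts per library, and Sms, which passed in 17 of 25 and 20 of 26 alternative settings), and Ahcy had a log2 difference of 0.18 (limma adjusted p = 0.32).

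Among 22 sirtuin and PARP genes, 3 were higher and 1 lower. The tankyrase Tnks2 rose from 2328 ± 135 to 3045 ± 145 (SD, n = 5, limma adjusted p = 0.000839), Parp9 rose by 0.38, and Parp2 fell by 0.30. Sirt1 and Parp1 had log2 differences of 0.08 and -0.10 that did not pass (limma adjusted p = 0.6 and 0.403).

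Genes of fuel metabolism were called in both directions. Of 21 genes of PPAR signalling and fatty acid oxidation, 5 were higher and 0 lower, with a median of 0.51. Hadhb, a subunit of the trifunctional enzyme of mitochondrial beta-oxidation, gave 739.3 to 1232 in untreated libraries and 1311 to 2784 at 1 day, a log2 difference of 0.85 (limma adjusted p = 0.00521). Acadvl and the carnitine carrier Slc25a20 rose by 0.80 and 0.57. With the adipocyte score in the model the median of the list was 0.03 with 4 genes higher, and without replicate 2 at 1 day it was 0.30 with 3 higher. The number higher was also 3 without replicate 4 at 1 day or without untreated replicate 1 or 3.

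In glycolysis 4 of 19 genes were higher and 1 (Gapdh) lower. Pgk1 and Pgam1 rose by 0.78 and 0.73 (limma adjusted p = 0.00116 and 0.000609), and Ldha by 0.44. Srebf2, the master factor of cholesterol synthesis, gave 2434, 2140, 2121, 2150 and 2493 in untreated libraries and 1363, 1288, 1518, 1415 and 1416 at 1 day. This is a log2 difference of -0.69 ± 0.10 (SE, limma adjusted p = 0.00042). In the list of 23 cholesterol genes 1 was higher and 2 lower, with Msmo1, an enzyme of that synthesis, higher by 0.44. Hsd17b7, another of its enzymes, was called lower, with 105.4 to 129 counts in untreated libraries and 59.67 to 94.98 at 1 day.

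Clock genes (3 of 20 higher, 0 lower) and glucocorticoid-responsive genes (2 of 17 higher, 1 lower) were called at shares near that of all genes, and the following are single genes. Cry1, a repressor of the circadian clock, gave 775.7, 743.5, 703.0, 626.3 and 642.0 in untreated libraries and 1022, 1063, 1089, 1032 and 1087 at 1 day. The treated values lay within a narrow band above all untreated ones, with a log2 difference of 0.60 ± 0.09 (SE, limma adjusted p = 0.000528). Nr1d2, a clock nuclear receptor, rose by 0.54. Dbp and Per1 did not pass (limma adjusted p = 0.0667 and 0.303). The hour of collection is not given in the sources used here. Nr3c1, the glucocorticoid receptor, rose from 688.4 ± 49.1 to 1090 ± 87.1 (SD, n = 5, limma adjusted p = 0.000409). Its targets Fkbp5 and Sgk1 had log2 differences of 0.16, which did not pass, and -0.35, which did.

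The antiviral list had the largest share called of the 52 lists. Of 29 antiviral genes 22 were higher and 0 lower, with a median of 0.62, and 14 were higher without both the shallowest untreated library and replicate 5 at 1 day. Of 12 interferon-inducible GTPase genes 7 were higher and 0 lower, with a median of 0.48. Isg15, a ubiquitin-like modifier, gave 469.2, 750.1, 554.6, 556.7 and 407.7 in untreated libraries and 1097, 1219, 1253, 1157 and 1434 at 1 day (log2 difference 1.19, limma adjusted p = 0.000483). Ifit3, Ifi44 and Rsad2 rose by 1.45, 1.27 and 1.38, and the GTPase genes Iigp1, Igtp and Irgm2 by 0.72, 0.69 and 0.55. Gbp11, a guanylate-binding protein named for the size of its change, rose by 1.86 (limma adjusted p = 0.0105).

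The core of the interferon-stimulated response element (GAAA, any 2 bases, GAAA) was sought on both strands of RefSeq promoters (GRCm38.p6, from 250 bases before to 50 after the gene start). It occurred in 943 of 27025 promoters (3.49%). It was in 13 of the 20 antiviral genes with a promoter in that set (65%), and in all 9 GTPase genes with one. Among those called higher it was in 10 of 17 antiviral genes (58.8%) and 5 of 5 GTPase genes. It was thus not more frequent in the genes called than in their whole lists. The windows below were chosen because they carry this element in genes that moved together, with the matching letters in capitals.
Isg15: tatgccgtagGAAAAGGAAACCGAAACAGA
Ifit3: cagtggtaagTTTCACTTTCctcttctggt
Irgm2: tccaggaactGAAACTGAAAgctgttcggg
Igtp: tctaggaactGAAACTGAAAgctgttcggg
Tgtp2: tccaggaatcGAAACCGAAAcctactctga

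The Isg15 window lies on the minus strand at chr4:156200877-156200906 and holds overlapping matches, and that of Ifit3 lies on the plus strand at chr19:34583363-34583392. Those of Irgm2 (chr11:58214903-58214932) and Igtp (chr11:58199512-58199541) are on the plus strand and share most of their letters. The window of Tgtp2 (chr11:49064263-49064292) is on the minus strand, and Tgtp2 was among the GTPase genes called higher. Tgtp2 and Ifit3 have near-identical neighbours (Tgtp1 and Ifit3b) between which reads can be shared.

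For the respiratory chain, a core of the site of the factor NRF1, the capitals of the last window shown, was sought in the same way. It occurred in 264 of 27025 promoters (0.977%) and in 2 of the 30 nuclear respiratory genes with one in the set. Of the 17 such genes called higher, 1 carried it. Uqcrc1, a core protein of complex III that rose by 0.30 on the log2 scale (limma adjusted p = 0.0298), carries it at chr9:108936668-108936697 on the plus strand.
Uqcrc1: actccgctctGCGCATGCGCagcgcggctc

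Among the named genes outside the lists, the smallest adjusted p belonged to Phrf1, which encodes a ubiquitin ligase and overlaps the end of the interferon regulator Irf7 on chromosome 7. It gave 1304, 1098, 1123, 1099 and 1085 in untreated libraries and 711.3, 793.9, 816.1, 697.2 and 717.6 at 1 day, a log2 difference of -0.61 ± 0.06 (SE, limma adjusted p = 3.36e-05). Zswim8, the receptor of a ubiquitin ligase that triggers microRNA decay, fell from 1144 ± 44.1 to 599.7 ± 66.6 (SD, n = 5), a log2 difference of -0.94 with limma adjusted p = 0.000231. Tnrc6c, a scaffold of microRNA silencing, fell by 0.81 (limma adjusted p = 0.000262).

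Large falls also included Creb3l1, a membrane-bound factor of secretory and matrix genes, at -1.21. Ngfr, the low-affinity neurotrophin receptor found on follicular stroma, fell by 1.18, and the secreted hormone Stc1 by 0.82. Gadl1, a decarboxylase of acidic amino acids, fell from 201.2 ± 66.9 to 47.9 ± 19.9 (SD, n = 5), a log2 difference of -2.09 with limma adjusted p = 0.000306. Rbp7, a retinol-binding protein of fat and vessels, rose by 1.91 (limma adjusted p = 0.0213) and was no longer called without replicate 2 at 1 day. The autophagy gene Gabarapl2 rose by 0.64 (limma adjusted p = 0.0013) in a list where 3 of 25 were higher and 1 lower.

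Other lists had few members called. Among 8 plasmacytoid dendritic cell genes, 1 (Bst2, also in the antiviral list) was higher and 2 (Tcf4 and Cox6a2) lower. Cox6a2 passed in 19 of 26 alternative settings. Among 10 germinal centre genes 2 were higher and 1 lower. The shares called in these short lists, 37.5% and 30%, lay above the 16.6% of all genes. Of 33 cell cycle genes, 1 (E2f1, at -0.52) was lower and 0 higher, and the proliferation marker Mki67 had a log2 difference of 0.11 (limma adjusted p = 0.601). MHC class I had 2 of 18 higher and MHC class II 2 of 12 lower, of which H2-Oa passed in 20 of 26 alternative settings. Replication-dependent histones had 2 of 13 higher, p53 targets 2 of 20 higher, cytokine feedback genes 3 of 16 lower, among them Bcl3 at -0.40, and complement genes 1 higher and 1 lower of 17, the latter being Cd55 at -0.38. Targets of TGF-beta and Wnt had 2 of 16 lower (Lef1 and Axin2), stromal genes 1 of 19 (Cxcl13) and lymphatic endothelium 1 of 10 (Madcam1). These genes are already given above and are not further calls. Skeletal muscle had 1 of 8 lower and cytotoxic lymphocyte genes 1 of 14 higher. Plasma cell and conventional dendritic cell genes had 1 higher and 1 lower each, of 12 and 15. Regulatory T cell, mast cell and pancreatic acinar genes had 0 of 12, 0 of 10 and 0 of 2 called.

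Markers of other cell types besides adipocytes also lay higher at 1 day without many calls. The neutrophil list had the highest median of the 52 lists, 1.34, with 10 of 13 differences positive, 1 gene called higher and 1 lower. Its summed level was 1259 to 3161 counts in untreated libraries and 1746 to 13143 at 1 day. Epithelial markers had a median of 0.68 with 8 of 10 positive and 1 called lower, and erythroid markers 0.54 with 8 of 9 positive and 1 called lower (Hemgn, which passed in 8 of 25 alternative settings). In both, replicate 2 at 1 day had the highest sum of its group. The part of these cells in the results above was not tested. Single libraries stood out, with S100a9 at 4596 in replicate 3 at 1 day and at 174.2 to 594.4 in the others of that group.

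The genes called at 1 day were also read in the later groups. They were chosen for their difference from the same untreated libraries, which pushes these medians in the chosen direction in every treated group, so the values are a description without a test. Over the 1562 genes higher at 1 day, the median deviation from the untreated mean was 0.35 to 0.50 in the libraries at 1 day. It was 0.32 to 0.40 in replicates 2 to 5 at 3 days, 0.04 in replicate 1 at 3 days and 0.04 to 0.14 at 14 days. Over the 1468 genes lower at 1 day the corresponding values were -0.59 to -0.39, -0.43 to -0.32, -0.10, and -0.11 to 0.00. Replicate 1 at 3 days stood near the untreated libraries and had the highest mitochondrial share, 14.0%. On the second principal component the libraries at 1 day and replicates 2 to 5 at 3 days lay on one side and the others on the opposite side. The labels give no preparation batch, and such a batch and the treatment cannot be told apart at 1 day.

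Mean levels of the lists at each time are given side by side. The mean level of antiviral genes was 0.66 above untreated at 1 day on the log2 scale, 0.10 at 3 days and 0.25 at 14 days. For the nuclear respiratory list it was 0.38, 0.21 and 0.13, and for the mitochondrial rows -0.69, -0.24 and 0.22. Psmd6 at 3 days gave 1522 in replicate 1 and up to 2376 in the others, and Cox5a 2485 in replicate 1 and up to 5204. Differences between the time points were not tested here.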

How the data were processed

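RNA-seq of 10 libraries labelled spleen (untreated and 1 day of NAM, 5 each) was compared, with 10 further libraries of the label (3 and 14 days) in the model. The authors deposited 1 table with a linear signal for each gene, its read count divided by a DESeq2 size factor. The submitters' processing notes name STAR 2.4.0, FastQC, Picard, SAMtools, DESeq2 and mm10. Strand use in counting is not given in the sources used here, so overlapping genes and near-identical copies can share reads. The table has 56414 rows, of which 30657 lack a symbol. Values of each library labelled spleen were whole multiples of 1 step (100% of low values within 0.01), which returned whole reads.

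Values were tested as log2(value + 1) with limma 3.58.1 (trend) in R 4.3.3 over 18243 genes with a mean of at least 10, with Benjamini-Hochberg adjustment and a two-sided threshold of 0.05. Differences of low genes are understated on this scale. Depth limits the precision of low rows. The test was checked on simulated reads. The 20 same-group library pairs differed beyond counting noise (lowest chi-square per degree of freedom 9.73). Lists were described by counts and medians without a test of their own. Genes named are the first 3 of each list, up to 4 called members per list with the smallest adjusted p, the 15 largest non-overlapping rises and falls with a mean of at least 50, the 5 of each with the smallest adjusted p, and Glycam1 and Spic. Some genes of this rule are not reported here. Further called members of a list, and the promoters shown, were chosen after their values were seen. Members and lists were chosen with earlier results of these data known.

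Alternatives covered the pseudocount, filter, scaling, groups in the fit, library weights, a replicate block, leaving out single replicates, stricter calls, and count tests of the recovered reads (edgeR 4.0.16, which called 2976 genes, and DESeq2 1.42.0). Added after seeing the data were fits without the 3 day group or without 2 doubted libraries, size factors without the mitochondrial chromosome, a length and GC correction (GENCODE M21), and an adipocyte score as covariate. Python 3.11.15 drew the figures.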

Additional observations from a re-analysis of the deposited data

Results flagged for a closer look

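In 348 sets of 5 libraries, 17 had 1 library farther from the others than Dixon's 95% limit allows, and chance alone sets apart about 1 set in 20. Replicate 2 at 1 day was the distant library for Col1a1 at 14559 normalised counts, Krt18 at 6205, Ldha at 35844, Cox4i1 at 22710, Ndufa4 at 8834, Uqcrc1 at 7804 and Xbp1 at 12232, in each case the highest of its group. Replicate 3 at 1 day was highest for the neutrophil gene S100a9 at 4596, and replicate 5 at 1 day for the venule gene Madcam1 at 284.8. Among untreated libraries, replicate 1 was highest for Phrf1 at 1304 and Srrm1 at 8488, replicate 3 was highest for Cox4i1 at 13568, and replicate 5 was lowest for Atf4 at 6475.

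Among mean log2 levels of lists, untreated replicate 5 stood apart for skeletal muscle at 5.95, the highest, and for natural killer and cytotoxic lymphocyte genes at 8.35, the lowest. Untreated replicate 1 was lowest for targets of the integrated stress response at 9.57, and untreated replicate 3 was lowest for cholesterol synthesis at 9.45.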

How the results depend on the processing

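The total of 3030 genes called stayed within 1.5 times under every other scaling, filter, tool and covariate tried, from 2128 without the 2 doubted libraries to 3932 with library weights. Without the 3 day group, which holds 1 library near the untreated level, 2935 were called, and leaving out 1 replicate gave 2277 to 2887. Outside that range were a call at 1.5-fold with raw p up to 0.05, which gave 1497 (713 higher, 784 lower), and an adjusted p under 0.01, which called 1179 (621 higher, 558 lower). On the recovered reads edgeR called 2976 genes, 2879 of them shared, and DESeq2 3368, 2971 shared. Quantile normalisation moved the balance to 1269 higher and 1769 lower, and the adipocyte score in the model to 2157 higher and 1551 lower. Replicate numbers are shared between the groups, and the deviations of same-numbered libraries correlated at 0.157, 0.325, 0.279 and 0.162 for replicates 1 to 4 and at -0.324 for replicate 5. As 1 pair was not positive, the libraries were not taken as paired. Of 10 libraries, 4 correlated best with their own number. With the replicate number as a block, 3039 genes were called. Of 103 genes called and given a fold change, 84 passed in all 26 alternatives. Cd3e, which was not called, changed sign with the adipocyte score in the model, to 0.067, and the cause was not tested. The length and GC correction could not be applied to the mitochondrial rows, which have no value in the transcript set used.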
